A study of Homo sapiens with 4 samples.

Results

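The HOX cluster genes are the 39 rows, of 38972 in the deposited expression table, whose symbol is HOXA, HOXB, HOXC or HOXD followed by a paralog number. They divide into 11 HOXA, 10 HOXB, 9 HOXC and 9 HOXD genes. RNA was sequenced from HEK293T, an established line derived from human embryonic kidney, in 4 libraries: 2 labelled as overexpressing RNase H1, the enzyme that removes RNA paired with DNA, and 2 labelled as overexpressing the Flag epitope tag. The labels do not describe how either was expressed, and they do not say whether the 2 libraries of a group came from separate cultures, so p-values measure only the spread between these libraries. Levels are in TPM, a share of the library per transcript length, so levels of different genes may be set side by side.

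HOX genes encode homeodomain transcription factors that give cells their position along the head-to-tail axis of the embryo. Within each cluster the genes lie in the order of their paralog numbers. Low numbers act in anterior and high numbers in posterior parts of the body, and genes with the same number in different clusters are the closest relatives. In mice the genes of paralog group 11 are together needed for the kidney to form. HOX proteins bind DNA together with cofactors of the TALE class, the PBX, MEIS and PKNOX proteins.

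The gene of the overexpressed enzyme came first as a check of the labels. RNASEH1 had 29.9 and 29.7 TPM in the RNase H1 group, against 32.1 and 32.8 TPM in those labelled Flag (log2 fold change -0.12 ± 0.06, SE, limma adjusted p = 0.26). RNH1, the symbol of a ribonuclease inhibitor gene and the short form used in the label, had 51.5 and 58.3 TPM, against 56.9 and 54.6 TPM in the Flag group (log2 -0.02 ± 0.07, SE, limma adjusted p = 0.857). Neither gene bears out the label, so the groups keep the names of their labels, and higher or lower below means the RNase H1 label against the Flag label. Log2 values correlated at 0.99 within each group and at 0.98 across groups over the 15651 tested genes. All 11 listed HEK293T marker genes reached the test level of 1 TPM on average, PAX2 only just (1.36 and 1.49 TPM under the RNase H1 label, 1.29 and 1.86 TPM under the Flag label). Of these markers, KRT18, KRT8 and VIM were called higher and IRS4, NEFM and NEFL lower. Markers of lymphoid, liver, fibroblast, endothelial and adult kidney tubule cells summed to 16.4 and 21 TPM in the RNase H1 group and to 18.8 and 20.2 TPM in the Flag group, most of it COL1A1, with UMOD at 0 in all 4 libraries. In bulk RNA, fewer cells of a kind and less RNA per cell cannot be told apart.

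Most HOX genes were expressed, and 5 of them were called higher under the RNase H1 label. Of the 39 genes, 36 had a mean of at least 1 TPM and were tested, 17 reached 20 TPM and 7 reached 50 TPM. Means among the tested genes ran between 1.59 TPM for HOXD1 and 161 TPM for HOXA9. In both groups every tested gene averaged at least 1 TPM, so none passed through a high level in 1 group alone. The 3 genes below the test level were HOXB1 (0 to 0.07 TPM over the 4 libraries), HOXC12 (0.3 to 0.67 TPM) and HOXD12 (0.17 to 0.41 TPM). HOXB1 patterns the hindbrain, and HOXC12 and HOXD12 are neighbours of the group 13 genes at the posterior ends of their clusters.

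By limma on log2(TPM + 1), adjusted over all 15651 tested genes, 5 HOX genes were called higher at an adjusted p under 0.05 and 0 were called lower. The 5 were HOXA5, HOXA9, HOXA10, HOXB2 and HOXC9. They are 13.9% of the tested HOX genes, beside 6.3% of all tested genes called higher, 5.54% called lower and 11.8% called in either direction. At an unadjusted p under 0.05, 12 HOX genes were higher and 1 was lower, where the shares of all tested genes were 16.2% and 15.1%. The log2 fold change was above 0 for 29 of the 36 and below 0 for 7, where quantile normalization put 30 and 6 and a correction for GC content 31 and 5 on these sides. Above 0 stood 80.6% of the tested HOX genes and 50.6% of all tested genes. The median HOX change was 0.19 on the log2 scale, with a range of -0.25 to 0.51, beside a median of 0.0035 over all tested genes. In 23 HOX genes both libraries labelled RNase H1 lay above both labelled Flag, and in 4 both lay below, while 31.3% and 29.4% of all tested genes did so.

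The 5 calls did not outlast the loss of a library. Without either library of the RNase H1 group, or without either of the Flag group, no HOX gene was called. Among all tested genes those 4 fits called 0, 1, 1 and 15, against 1853 with all 4 libraries. The calls of HOXC-AS1, KMT2A, MEN1, RARB, GMNN, HNRNPA1, ATP5MC2 and HNRNPA3 given further on ended in the same 4 fits. No HOX gene was called without a filter on low values or without the variance trend either, where 15 and 14 were higher at an unadjusted p under 0.05. The median HOX change was 0.17 to 0.20 with 1 library left out, fits in which the lone library of a group was assumed to vary like the other group.

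**Figure D1:**
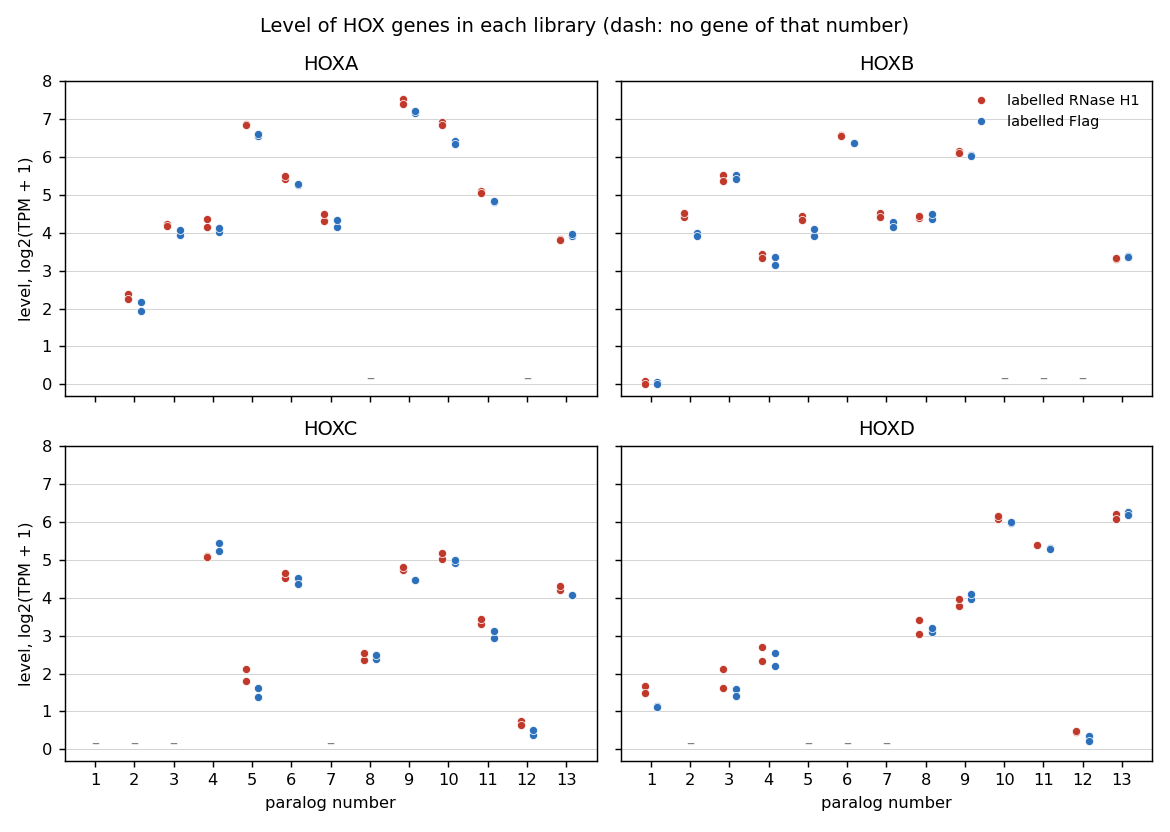
Level of HOX genes, as log2(TPM + 1), in each library against its paralog number, with 1 panel per cluster and 2 points per group (libraries labelled RNase H1 in red on the left, libraries labelled Flag in blue on the right). HOXA9 is the highest gene with a mean of 161 TPM, and HOXB1, HOXC12 and HOXD12 lie near the bottom below 1 TPM.

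HOXA was the cluster with the most RNA and the most calls. It lies on the minus strand of chromosome 7, where HOXA10, for example, is annotated at chr7:27170591-27180261 (GENCODE release 29 on GRCh38). Summed over its 11 genes, HOXA measured 597 and 570 TPM in the libraries labelled RNase H1, against 471 and 482 TPM in those labelled Flag. All 11 were tested and 3 were called higher, 10 had a log2 change above 0, and the median was 0.24.

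HOXA10, which acts in the developing uterus and in blood cell precursors, had the clearest difference of the cluster. It measured 119 and 114 TPM in the libraries labelled RNase H1, against 83.8 and 80.3 TPM in those labelled Flag. The groups did not overlap, and the libraries of a group differed by only 0.07 and 0.06 on the log2 scale, RNase H1 label first. The log2 fold change was 0.50 ± 0.05 (SE, 95% interval 0.37 to 0.63, limma adjusted p = 0.0099), and it was 0.47 to 0.53 over all alternatives.

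HOXA9, a gene of blood cell precursors known for its part in leukaemia, stood at 184 and 168 TPM under the RNase H1 label and at 143 and 148 TPM under the Flag label. The lower library of the RNase H1 group was above both of the Flag group (log2 0.27 ± 0.06, SE, limma adjusted p = 0.0374). The call also ended under quantile normalization (0.24, adjusted p = 0.0507) and with a correction for GC content, exon length and gene span (0.22, adjusted p = 0.0714). HOXA5, needed for lung development in mice, had 115 and 113 TPM in the RNase H1 group, against 92.4 and 97 TPM in the Flag group (log2 0.27 ± 0.05, SE, limma adjusted p = 0.0301). Again no library of one group reached the other.

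The remaining HOXA genes were not called in the reported fit, with limma adjusted p between 0.0674 and 0.417. HOXA2, which patterns the second pharyngeal arch, was low at 4.23 and 3.74 TPM under the RNase H1 label, against 2.82 and 3.49 TPM under the Flag label. HOXA3, needed for thymus and parathyroid formation in mice, had 17.6 and 17.1 TPM, against 14.4 and 15.7 TPM in the Flag group. Both of these anterior genes were separated between groups without passing the test.

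HOXA4 measured 19.5 and 16.9 TPM in the libraries labelled RNase H1 and 15.1 and 16.6 TPM in those labelled Flag. HOXA6 measured 42 and 44.2 TPM, against 37.2 and 37.8 TPM in the Flag group, and HOXA7 18.8 and 21.4 TPM, against 16.6 and 19.1 TPM. HOXA7 overlapped between groups, and HOXA4 and HOXA6 did not. HOXA6 was called with GC content corrected alone (limma adjusted p = 0.0457) and together with exon length and gene span (limma adjusted p = 0.0428). HOXA4, HOXA6 and HOXA7 act in the cervical and thoracic region of the mouse axis.

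HOXA11, 1 of the group 11 genes of kidney formation, had 33 and 32.1 TPM in the RNase H1 group, against 27.3 and 27.7 TPM in the Flag group (log2 0.24 ± 0.06, SE, limma adjusted p = 0.0674). It was separated between groups and missed the threshold, but was called with a minimum mean of 5 TPM (limma adjusted p = 0.0482). HOXA13, which shapes hands, feet and the genital tract, was the only HOXA gene below 0. It stood at 13.3 and 13.1 TPM under the RNase H1 label and at 14 and 14.7 TPM under the Flag label, without overlap and without a call (log2 -0.11 ± 0.08, SE, 95% interval -0.32 to 0.10, limma adjusted p = 0.417).

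Reads of neighbouring and antisense transcripts can fall on the same bases, and the strand setting of the authors' counting is not given in the sources used here, so 25 of the 39 HOX values are uncertain for this reason. HOXA5 shared no exon bases with another annotated gene. HOXA10 shared 16.4% of its exon bases with HOXA10-AS on the opposite strand and 9.93% with AC004080.3 on the same strand, and HOXA9 13.9% and 13.1% with the same pair. HOXA10-AS itself stood at 19.8 and 21.4 TPM in the RNase H1 group and at 17 and 20.4 TPM in the Flag group (log2 0.14 ± 0.11, SE, limma adjusted p = 0.428). The share was larger for HOXA7, with 62.5% on HOXA-AS3, and for HOXA6, with 39.3% on the same transcript. It was 31.1% for HOXA11 with HOXA11-AS.

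A link between promoter sequence and change was not tested, and the genes shown were picked with their values known. The promoter windows of the called genes HOXA9 and HOXA10 are shown beside that of HOXA13, the only HOXA gene below 0, which was not called. Each is the 250 bases before a transcript start in RefSeq (GRCh38.p14), written 5′ to 3′ on the gene's own strand, which is the minus strand for these 4 windows. Capitals mark matches on either strand to any of 5 motifs. The TATA box was searched as TATAAA, and the element that NF-Y binds as CCAAT. The element of SP factors was searched as GGGCGG, and the E-box of helix-loop-helix proteins as CACGTG. The core that many homeodomains bind was searched as TAATTA. No motif contains another of the set, although matches may abut or share bases. RefSeq gives 2 starts for HOXA10, at chr7:27174321-27174570 (window 1) and chr7:27179862-27180111 (window 2). The HOXA9 window is chr7:27165538-27165787 and the HOXA13 window is chr7:27200092-27200341. The called genes HOXA5, HOXB2 and HOXC9 had no promoter entry and are named only.
HOXA10 window 1: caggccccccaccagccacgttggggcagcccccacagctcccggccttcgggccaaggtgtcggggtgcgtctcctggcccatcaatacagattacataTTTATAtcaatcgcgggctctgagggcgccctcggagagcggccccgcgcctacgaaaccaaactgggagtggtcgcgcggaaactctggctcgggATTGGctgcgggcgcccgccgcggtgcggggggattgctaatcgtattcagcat
HOXA10 window 2: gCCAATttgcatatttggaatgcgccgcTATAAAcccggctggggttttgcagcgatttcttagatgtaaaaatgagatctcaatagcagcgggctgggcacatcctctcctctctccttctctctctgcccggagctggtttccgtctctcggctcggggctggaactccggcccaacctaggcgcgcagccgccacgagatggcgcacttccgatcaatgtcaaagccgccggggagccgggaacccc
HOXA9: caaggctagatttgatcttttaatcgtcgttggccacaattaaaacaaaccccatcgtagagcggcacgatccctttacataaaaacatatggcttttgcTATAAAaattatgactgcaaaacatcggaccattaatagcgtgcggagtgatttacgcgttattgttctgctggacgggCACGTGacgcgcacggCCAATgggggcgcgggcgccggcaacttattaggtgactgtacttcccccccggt
HOXA13: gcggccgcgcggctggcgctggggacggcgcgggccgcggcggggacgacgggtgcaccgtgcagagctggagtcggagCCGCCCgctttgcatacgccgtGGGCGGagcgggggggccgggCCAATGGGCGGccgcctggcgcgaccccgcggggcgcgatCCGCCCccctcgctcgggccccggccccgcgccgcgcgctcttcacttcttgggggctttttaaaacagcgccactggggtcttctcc
Both HOXA10 windows and the HOXA9 window held a TATAAA and a CCAAT match, and the HOXA9 window also held CACGTG. HOXA10 window 1 and HOXA9 placed these at nearly the same distance before the start but on opposite strands. TATAAA lay at 150 bases in each, and CCAAT at 54 bases in HOXA10 window 1 and 55 bases in HOXA9. In HOXA10 window 1 they are written as TTTATA and ATTGG, the matches on the other strand. The HOXA13 window held 1 CCAAT and 4 GGGCGG matches and none to TATAAA. Its GC content was 78%, against 65.2% and 58.8% for HOXA10 windows 1 and 2 and 48.8% for HOXA9.

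Over all HOX genes, 20 had a promoter entry, giving 26 distinct windows of which 7 belong to HOXA3. HOXB had only the window of HOXB1, which was below the test level. HOXC had only a window shared by HOXC4 and HOXC5, so the shares below are mainly those of HOXA and HOXD. CCAAT stood in 17 of the 26 (65.4%), beside 32% of 35116 windows of the same length over all genes. CACGTG stood in 8 (30.8%), beside 6.34%, in windows of HOXA3, HOXA4, HOXA9, HOXD1, HOXD3, HOXD10, HOXD11 and HOXD13. GGGCGG was in 50% of the HOX windows and 42.6% of all, TATAAA in 19.2% and 10.7%, and TAATTA in 7.69% and 4.35%. GC content had a median of 58.8% in the HOX windows and 58% in all. These are counts of letters in a window and not of bound sites, and the genes with CACGTG include 1 that was called, HOXA9, and 1 below 0, HOXD13.

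HOXB contributed less. It spans 201 kb of chromosome 17 (chr17:48528526-48729178, minus strand), and its 10 genes summed to 311 and 303 TPM in the libraries labelled RNase H1, against 278 and 273 TPM in those labelled Flag. Of 9 tested genes 1 was called higher, 6 were above 0, and the median log2 change was 0.14.

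HOXB2, which patterns the hindbrain, was the called gene. It had 20.3 and 21.8 TPM in the RNase H1 group, against 14.8 and 14.1 TPM in the Flag group. No library overlapped. The log2 fold change of 0.51 ± 0.08 (SE, 95% interval 0.31 to 0.72, limma adjusted p = 0.0221) was the largest point estimate among the tested HOX genes in the reported fit. Over the alternatives the low genes HOXD1, HOXC5 and HOXD3 reached up to 0.68, 0.63 and 0.61, and HOXB2 up to 0.56. HOXB2 shared 3.72% of its exon bases with HOXB-AS1 on the opposite strand.

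HOXB5 and HOXB6 were not called in the reported fit and were called under some of the alternatives. HOXB5 measured 20.6 and 19.3 TPM under the RNase H1 label and 14.1 and 16.2 TPM under the Flag label (log2 0.38 ± 0.10, SE, limma adjusted p = 0.0575). HOXB6, the most abundant HOXB gene, measured 93.8 and 93.3 TPM, against 82.1 and 81.8 TPM in the Flag group (log2 0.19 ± 0.05, SE, limma adjusted p = 0.0535). The libraries of each group lay within 0.01 of each other for HOXB6 on the log2 scale, and HOXB6 shared 16.3% of its exon bases with HOXB-AS3 and 16.6% with HOXB3. With a minimum mean of 5 TPM both were called (limma adjusted p = 0.0359 for HOXB5 and 0.0391 for HOXB6), and HOXB6 also with either GC correction (limma adjusted p = 0.0409 and 0.0492). HOXB5 and HOXB6 act in the cervical and thoracic region of the mouse axis.

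HOXB7 had 21.8 and 20.4 TPM in the libraries labelled RNase H1, against 18.4 and 16.6 TPM in those labelled Flag. HOXB9, a gene of the thoracic region, had 70.7 and 68.1 TPM, against 65.1 and 63.6 TPM in the Flag group. HOXB4, known for expanding blood stem cells when supplied in excess, had 9.83 and 9.14 TPM, against 9.34 and 7.8 TPM. HOXB7 and HOXB9 were separated between groups, HOXB4 was not, and none passed the test (limma adjusted p 0.11, 0.234 and 0.489).

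The other HOXB genes lay at or just below 0. HOXB3, a hindbrain gene, stood at 44.6 and 40.5 TPM in the RNase H1 group and at 45.2 and 41.8 TPM in the Flag group. HOXB8 stood at 20 and 20.8 TPM, against 19.6 and 21.5 TPM in the Flag group. HOXB13, a gene of the prostate and hindgut at the far end of the cluster, stood at 8.91 and 9.11 TPM, against 9.45 and 9.23 TPM. Their log2 changes were -0.03 ± 0.08, -0.01 ± 0.08 and -0.05 ± 0.10 (SE), with 95% intervals of -0.22 to 0.15, -0.21 to 0.19 and -0.28 to 0.19, so smaller changes were not detectable at this spread. HOXB8 moved to 0.0022 under quantile normalization and to 0.05 with GC content corrected, and HOXB13 to 0.0011 with GC content corrected.

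HOXC had 1 call and the only HOX gene lower at an unadjusted p under 0.05. The cluster spans 117 kb of chromosome 12 (chr12:53938765-54056030, plus strand), and its 9 genes summed to 146 and 156 TPM in the libraries labelled RNase H1, against 143 and 138 TPM in those labelled Flag. Of 8 tested genes 7 were above 0, and the median log2 change was 0.17.

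HOXC9, which in mice sets the identity of thoracic motor neurons, was called higher. It had 25.6 and 27.2 TPM in the RNase H1 group, against 21 and 21.1 TPM in the Flag group, with no overlap (log2 0.31 ± 0.07, SE, 95% interval 0.14 to 0.49, limma adjusted p = 0.0459). It was not called under quantile normalization (0.31, adjusted p = 0.05 after rounding). HOXC9 shared 9.71% of its exon bases with HOXC-AS2 and 4.35% with HOXC6.

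HOXC4, the most anterior HOXC gene, went the other way. It stood at 33.4 and 32.6 TPM under the RNase H1 label and at 42.6 and 36.6 TPM under the Flag label. The groups did not overlap, but the Flag libraries differed by 0.21 on the log2 scale, nearly as much as the groups (log2 -0.25 ± 0.09, SE, unadjusted p = 0.026, limma adjusted p = 0.109). Over the alternatives the change was -0.36 to -0.15. HOXC5, which lies within the HOXC4 gene, was low and on the other side of 0. It had 2.51 and 3.31 TPM in the RNase H1 group, against 1.61 and 2.08 TPM in the Flag group (log2 0.46 ± 0.19, SE, limma adjusted p = 0.171).

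RefSeq gives HOXC4 and HOXC5 the same start, and their shared window (chr12:54016638-54016887, plus strand, GRCh38.p14) is shown because the 2 genes had opposite signs, though neither was called. GENCODE release 29 starts HOXC4 at chr12:54016931 and HOXC5 only at chr12:54032853. The window thus lies just before HOXC4 and not directly before that HOXC5 gene model. Capitals mark 2 CCAAT matches, at 200 and 77 bases before the start.
HOXC4 and HOXC5: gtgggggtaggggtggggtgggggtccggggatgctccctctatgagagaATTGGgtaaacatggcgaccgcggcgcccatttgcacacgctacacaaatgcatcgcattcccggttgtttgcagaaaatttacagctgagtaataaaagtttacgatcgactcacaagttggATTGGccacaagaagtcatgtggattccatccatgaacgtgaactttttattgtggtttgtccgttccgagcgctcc
In GENCODE release 29, HOXC4 shares 17.8% of its exon bases with HOXC6 and 11.2% with a noncoding entry of HOXC5, and HOXC5 shares 59.9% of its bases with that entry and 33.9% with AC012531.2. The split of reads between these genes, and so both values, is uncertain.

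HOXC6 had 22.1 and 24.1 TPM under the RNase H1 label and 22.1 and 19.4 TPM under the Flag label. HOXC8, which acts in motor neurons of the lower neck in mice, had 4.12 and 4.81 TPM, against 4.2 and 4.66 TPM in the Flag group. Both overlapped between groups, with log2 changes of 0.15 ± 0.09 and 0.01 ± 0.14 (SE), and HOXC8 moved to -0.01 with GC content, exon length and gene span corrected.

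Toward the posterior end all 4 tested HOXC genes had changes above 0. HOXC10, a gene of the lumbar region, had 31.2 and 35.2 TPM in the libraries labelled RNase H1, against 28.9 and 30.7 TPM in those labelled Flag. HOXC11 had 8.94 and 9.87 TPM, against 6.62 and 7.7 TPM in the Flag group (log2 0.35 ± 0.12, SE, limma adjusted p = 0.108). HOXC13, a gene of hair and nails, had 17.5 and 18.7 TPM, against 15.8 and 15.7 TPM. None of these 3 overlapped between groups, and none passed the test.

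HOXD had no call. It spans 98 kb of chromosome 2 (chr2:176092891-176190907, plus strand), and its 9 genes summed to 213 and 210 TPM in the libraries labelled RNase H1, against 206 and 205 TPM in those labelled Flag. At an unadjusted p under 0.05, 0 of the 8 tested HOXD genes were higher and 0 lower by limma, 6 were above 0, and the median log2 change was 0.11.

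The abundant HOXD genes were posterior. HOXD13, mutated in inherited fused fingers, had 72.6 and 67.1 TPM in the RNase H1 group, against 75.8 and 72.2 TPM in the Flag group (log2 -0.08 ± 0.06, SE, limma adjusted p = 0.407). HOXD10, a gene of the lumbar region, had 66.9 and 70.7 TPM, against 62.1 and 63.3 TPM (log2 0.13 ± 0.06, SE, limma adjusted p = 0.172). HOXD11, a group 11 gene of forearm and kidney, had 40.8 and 41.1 TPM, against 39 and 37.7 TPM in the Flag group. HOXD10 and HOXD11 were separated between groups and HOXD13 was not, and HOXD10 and HOXD11 have 452 exon bases in common.

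HOXD9 stood at 12.73 and 14.57 TPM under the RNase H1 label and at 14.64 and 16.19 TPM under the Flag label, apart by a margin smaller than the spread of either group (log2 -0.17 ± 0.10, SE, limma adjusted p = 0.33). HOXD8 had 9.74 and 7.21 TPM, against 7.49 and 8.14 TPM in the Flag group. HOXD4 had 5.5 and 4.06 TPM, against 3.62 and 4.8 TPM in the Flag group. HOXD4 and HOXD8 overlapped, and HOXD4 shared 80.5% of its exon bases with AC009336.2 on the same strand, so its reads may be divided.

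The anterior HOXD genes were low. HOXD1 had 2.18 and 1.8 TPM in the libraries labelled RNase H1, against 1.2 and 1.19 TPM in those labelled Flag (log2 0.44 ± 0.19, SE, limma adjusted p = 0.173). HOXD3, needed for the first vertebrae in mice, had 2.08 and 3.33 TPM, against 2 and 1.67 TPM in the Flag group (log2 0.37 ± 0.22, SE, limma adjusted p = 0.309). The HOXD3 change ran between 0.12 and 0.61 with 1 library left out. Both were separated between groups and not called. The added pseudocount of 1 makes the log2 change of such low genes smaller than the ratio of their TPM. HOXD3 shared 62.2% of its exon bases with AC009336.2 on the same strand, and HOXD1 50.1% with AC009336.3 on the opposite strand. Reads of both genes may therefore be divided.

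The window before HOXD13 (chr2:176092471-176092720, plus strand, RefSeq, GRCh38.p14) is shown as that of the most abundant HOX gene below 0, for comparison with HOXA13 of the same paralog group.
HOXD13: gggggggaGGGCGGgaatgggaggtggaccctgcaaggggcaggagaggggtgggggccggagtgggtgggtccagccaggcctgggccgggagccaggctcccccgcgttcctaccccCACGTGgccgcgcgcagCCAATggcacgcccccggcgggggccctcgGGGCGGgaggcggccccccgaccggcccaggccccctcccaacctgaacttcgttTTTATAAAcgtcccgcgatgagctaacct
It held 2 overlapping TATAAA matches, one per strand, at 29 and 27 bases before the start, with 1 CCAAT, 1 CACGTG and 2 GGGCGG matches. Its GC content was 74%, beside 78% for HOXA13.

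**Figure D2:**
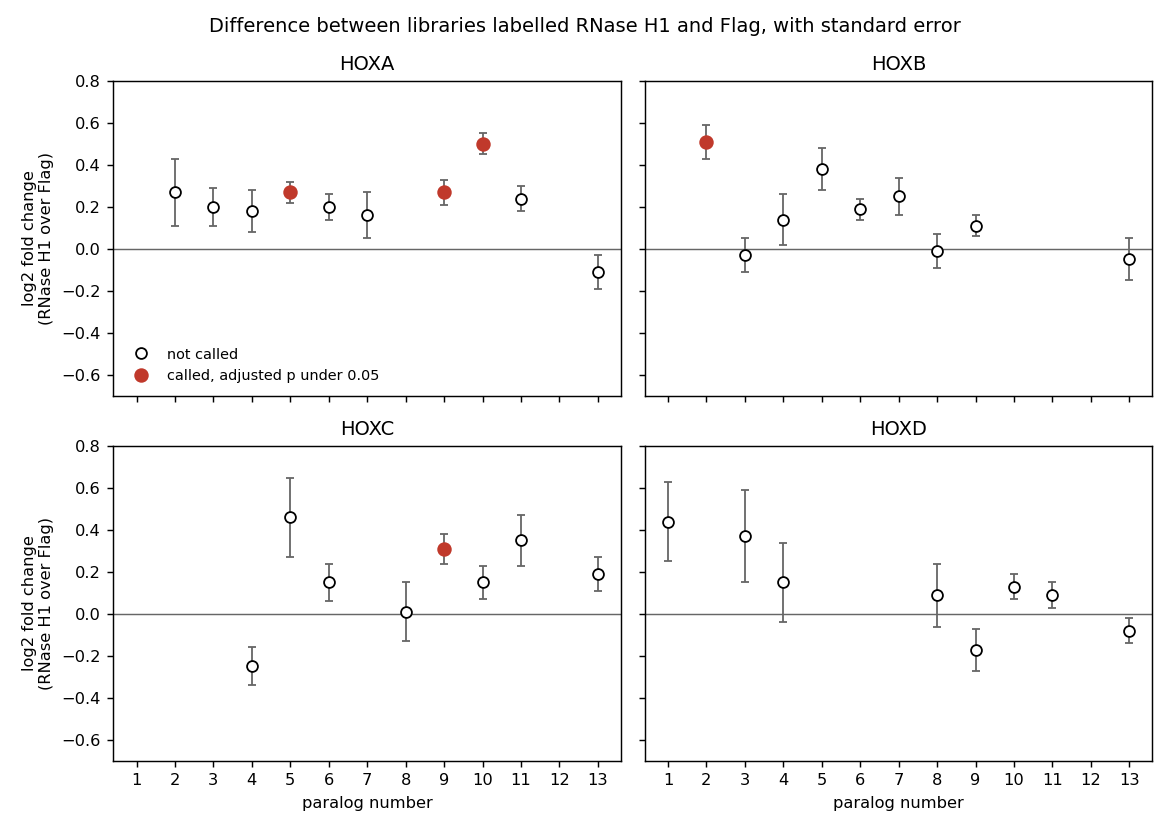
Log2 fold change of tested HOX genes (RNase H1 over Flag, on log2(TPM + 1)) against its paralog number, with the standard error as bars and 1 panel per cluster; filled points are called at an adjusted p under 0.05. HOXA10 (0.50) and HOXB2 (0.51) are the highest called points, and 3 of the 4 genes of paralog group 13 lie below 0 (2 of 4 with a GC correction).

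Along the paralog number, over the genes named here, the median change was highest among the anterior genes, and the 5 calls were spread from group 2 to group 10. Paralogs 1 to 3 had 1 of 6 genes called and a median log2 change of 0.32, paralogs 4 to 8 had 1 of 15 and 0.16, and paralogs 9 to 13 had 3 of 14 and 0.14. With a pseudocount of 5 these medians were 0.16, 0.13 and 0.13. Within HOXA the same 3 stretches had medians of 0.23, 0.19 and 0.25. Within HOXB they had 0.24, 0.19 and 0.03, and within HOXD 0.41, 0.12 and 0.0046. The 0.41 of HOXD rests on HOXD1 and HOXD3, both low and sharing exon bases with other transcripts. With a pseudocount of 5 the medians of paralogs 1 to 3 were 0.15 in HOXA, 0.20 in HOXB and 0.17 in HOXD. HOXC has no gene numbered 1 to 3, and its medians were 0.08 for paralogs 4 to 8 and 0.25 for paralogs 9 to 13. These medians rest on 2 to 5 genes each, and differences between stretches or clusters were not tested.

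By paralog group, group 5 had all 3 genes above 0 and separated between libraries, with HOXA5 called and a median of 0.38. Group 2 had a median of 0.39 over 2 genes, with HOXB2 called. Group 11 had all 3 genes above 0, a median of 0.24 and no call, and group 10 had all 3 above 0 with HOXA10 called and a median of 0.15. Group 9, the group with 2 calls (HOXA9 and HOXC9), also held HOXD9 below 0, and its median was 0.19. Group 8 stood at 0, with changes between -0.01 and 0.09 and all 3 genes overlapping. Group 13 was the only tested group with a median below 0, at -0.07, since HOXA13, HOXB13 and HOXD13 were below 0 and HOXC13 was above, although HOXB13 moved to 0.0011 with a GC correction. None of the 4 was called.

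The HOX sum as a whole, 1266 and 1239 TPM in the libraries labelled RNase H1 against 1099 and 1099 TPM in those labelled Flag, differed by 154 TPM between group means. HOXA held 69.3% of that difference, HOXB 20.2%, HOXC 6.74% and HOXD 3.78%. The 5 called genes held 62.5% of it, HOXA10 alone 22.3% and HOXA9 alone 19.9%. The difference in the sum was mostly that of a few abundant HOXA genes.

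**Figure D3:**
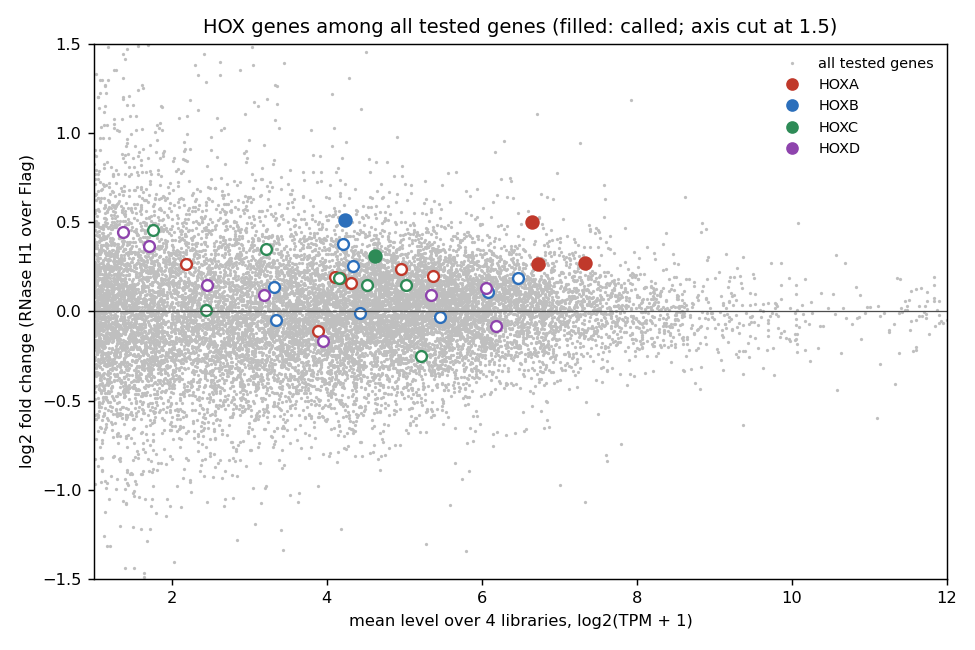
Log2 fold change (RNase H1 over Flag) against the mean level over 4 libraries, log2(TPM + 1), for the tested genes in grey and 35 tested HOX genes in colour by cluster, with filled points called; the axes stop at 1.5 on either side and at a level of 12. The HOX genes lie within the cloud of all genes, 28 of them above the line at 0.

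The HOX genes were short and rich in G and C. Their median GC content over the longest transcript was 54.8%, beside 48.4% for all tested genes with a gene model, their median span was 4.56 kb beside 27.7 kb, and their exons covered 2.42 kb beside 4.55 kb. With each library corrected for GC content, 7 HOX genes were called higher, beside 741 of all 15651 tested genes, and the median HOX change was 0.23. With GC content, exon length and gene span corrected together, 6 HOX genes were called higher, beside 689 of all 15651, and the median was 0.21.

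Of the noncoding RNAs transcribed from the clusters, 16 were tested and 1 was called higher (6.25%, beside 6.3% of all tested genes). HOXC-AS1, an antisense transcript of the HOXC cluster, had 6.65 and 6.73 TPM in the RNase H1 group, against 4.25 and 3.56 TPM in the Flag group (log2 0.65 ± 0.13, SE, limma adjusted p = 0.0354). HOXA-AS3 had 30.2 and 27.5 TPM, against 22.1 and 23.6 TPM in the Flag group (log2 0.32 ± 0.08, SE, limma adjusted p = 0.0552), and it lies over HOXA6 and HOXA7. HOXB-AS3 had 76.1 and 81.1 TPM, against 64.9 and 69.7 TPM (log2 0.22 ± 0.06, SE, limma adjusted p = 0.0736). These 3 were separated between groups on the same side as most HOX genes, while the median of the 16 was 0.08. Of the 16, 5 were separated higher and 3 lower, HOXB-AS4 among the lower, beside 31.3% and 29.4% of all tested genes. HOXB-AS4 had 2.4 and 0.93 TPM, against 4.14 and 3.14 TPM in the Flag group, and was not called (log2 -0.85 ± 0.30, SE, limma adjusted p = 0.113). HOTAIR, the HOXC transcript known for its proposed effect on HOXD, had 9.93 and 11.1 TPM, against 12.1 and 10.6 TPM, and HOTAIRM1 had 103 and 117 TPM, against 98.6 and 108 TPM. Both overlapped between groups, and these last 2 and HOXA10-AS were named after their values were seen.

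Of the TALE cofactors, 8 are described here. By limma 0 of these were called in either direction, and 2 were lower at an unadjusted p under 0.05, beside 15.1% of all tested genes. Below 0 lay 6 of the 8 (5 under quantile normalization), where 50.6% of all tested genes lay above 0. The median log2 change of the 8 was -0.07. PBX2 had 56.9 and 61.6 TPM in the libraries labelled RNase H1, against 67.5 and 70.3 TPM in those labelled Flag, PKNOX2 8.3 and 7.33 TPM, against 9.18 and 11.1 TPM, and PKNOX1 12.3 and 15.4 TPM, against 15.2 and 17.4 TPM. PKNOX1 overlapped between groups, PBX2 and PKNOX2 did not, and none was called (limma adjusted p 0.0761, 0.139 and 0.289).

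Among 20 tested regulators of HOX transcription, 3 were called higher and 1 lower, beside 6.3% and 5.54% of all tested genes, with a median of 0.02. With a correction for GC content 1 was called higher and 0 lower, beside 741 and 669 of all 15651 tested genes. KMT2A, the histone methyltransferase that maintains HOX expression, had 66.3 and 61.6 TPM under the RNase H1 label and 50.7 and 51.8 TPM under the Flag label (log2 0.31 ± 0.06, SE, limma adjusted p = 0.0327). MEN1, a protein that binds KMT2A, had 45.7 and 42.7 TPM, against 54.5 and 56.9 TPM in the Flag group (log2 -0.33 ± 0.06, SE, limma adjusted p = 0.0323). KMT2A and MEN1, partners in a complex, were thus called in opposite directions. RARB, a retinoic acid receptor, had 17.8 and 16.9 TPM, against 11.9 and 13.4 TPM (log2 0.43 ± 0.09, SE, limma adjusted p = 0.041). GMNN, an inhibitor of replication licensing that also binds HOX proteins, had 290 and 294 TPM, against 251 and 254 TPM (log2 0.21 ± 0.04, SE, limma adjusted p = 0.0284). The MEN1 and GMNN calls ended under either GC correction (MEN1 -0.27 and -0.28, GMNN 0.16 and 0.12), and the RARB call under the first (0.37).

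Of 17 tested genes beside the clusters 0 were called higher and 3 lower, beside 6.3% and 5.54% of all tested genes, and the median log2 change was -0.04. With GC content, exon length and gene span corrected, 1 of them, TAX1BP1, was called higher, beside 689 of all 15651 tested genes. HNRNPA1 (log2 -0.41 ± 0.04, SE, limma adjusted p = 0.00747) and ATP5MC2 (-0.20 ± 0.05, limma adjusted p = 0.0422) lie 224 and 261 kb from HOXC, and HNRNPA3 (-0.31 ± 0.04, limma adjusted p = 0.0161) lies 1022 kb from HOXD. Around HOXA, SKAP2 at 97.8 kb had a log2 change of -0.07, HIBADH at 325 kb -0.30 and TAX1BP1 at 539 kb 0.17. Around HOXB, PRAC2 inside the span had -0.34, CALCOCO2 at 102 kb -0.00036, SNX11 at 405 kb 0.27 and CBX1 at 427 kb 0.03. Around HOXC, SMUG1 at 65.2 kb had -0.04, CBX5 at 175 kb 0.17, CALCOCO1 at 211 kb -0.19 and ATF7 at 312 kb -0.09. Around HOXD, MTX2 at 78.5 kb had -0.04, LNPK at 90.1 kb -0.0014 and ATF2 at 925 kb 0.17.

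**Figure D4:**
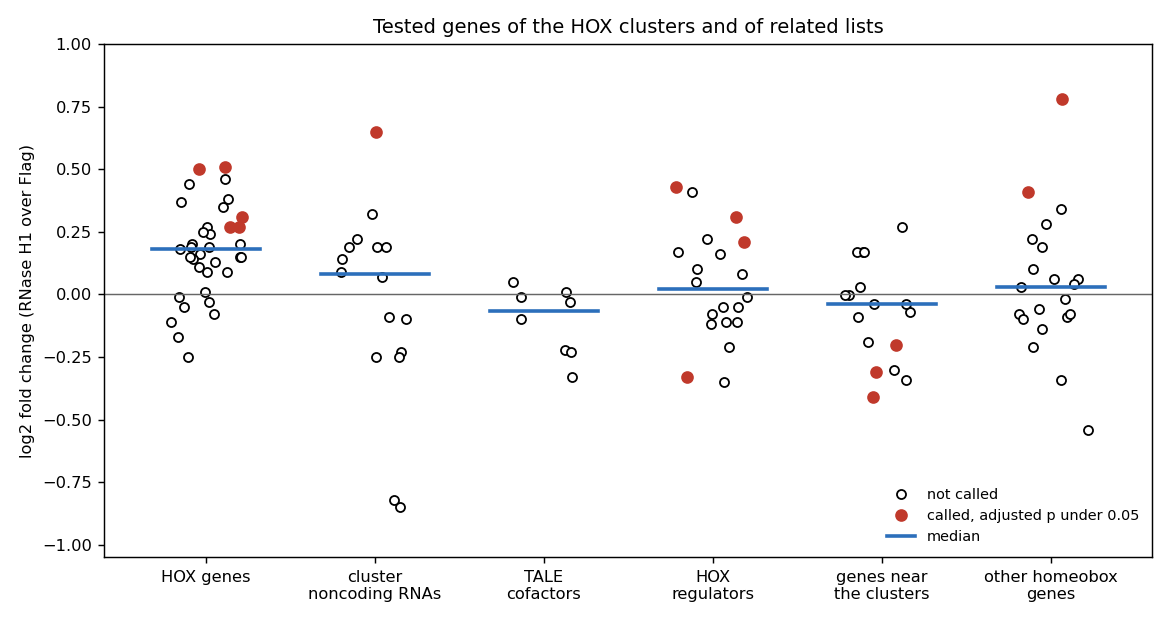
Log2 fold change (RNase H1 over Flag, on log2(TPM + 1)) of tested genes, 1 point per gene spread sideways at random within its list, for the HOX genes, the cluster noncoding RNAs, the TALE cofactors, the HOX regulators, the genes near the clusters and other homeobox genes, with filled points called and a line at each median. The medians of the points drawn are 0.18 for HOX genes and -0.07 for TALE cofactors, with the other lists between.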

How the data were processed

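The authors deposited 1 table of TPM values, with a column for each of the 4 libraries and 38972 rows named by gene. Per the labels' protocols, TRIzol served for the RNA and a VAHTS mRNA-seq V3 kit for the libraries. Per the submitters' processing notes STAR and hg38 were used. For the program that gave TPM, its annotation and its use of strand, nothing is given in the sources used here. Sequencing depth cannot be read from TPM and is unknown, and counting intervals were left out for that reason. Columns summed to 998936 and 998955 TPM in the RNase H1 group and to 998921 and 998901 TPM in the Flag group.

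The 15651 genes that averaged 1 TPM or more were compared on log2(TPM + 1) with limma 3.58.1 in R 4.3.3, with a group term, moderated variances with an intensity trend and two-sided tests. Benjamini-Hochberg adjustment ran over these 15651 genes, and a call is an adjusted p under 0.05. The log2 differences and their intervals are on that scale. An exact permutation test of 2 libraries against 2 cannot go below p = 0.333 and was not used. No 2 libraries were duplicates, since at most 0.422% of tested genes had identical values in a pair. Nothing in the labels or values showed that replicate numbers pair the libraries.

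The HOX genes, the other gene lists and the tests were chosen with earlier results of these data known. The rule named every HOX gene averaging 1 TPM or more, with lower ones given by range. From each other list up to 4 tested members with the smallest p are named, with every tested neighbour. Some genes that these rules include are counted in the HOX totals or left out, and not reported here. Other genes were named after their values were seen. Gene models came from GENCODE 29 and promoter sequences from RefSeq. Alternatives were pseudocounts of 0.1 and 5, no filter or a mean of at least 5 TPM, quantile and median-of-ratios scaling, no variance trend, robust variances, a minimum change of 2-fold, the replicate number as a block, and leaving out each library. After seeing the data, spline corrections (4 degrees of freedom) were added for GC content alone and together with exon length and gene span.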

Additional observations from a re-analysis of the deposited data

How the results depend on the processing

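The median log2 fold change of the HOX genes stayed between 0.15 and 0.23 over all 16 alternatives, and 0 HOX genes were called lower under any of them, beside 0 to 1 at an unadjusted p under 0.05. The count of HOX genes called higher by limma, 5 in the reported fit, was 0 without a filter on low values, 8 of 30 with a minimum mean of 5 TPM, 3 under quantile normalization, 0 with variances without a trend, 0 with a minimum change of 2-fold, 7 and 6 with the GC correction and the GC, exon length and gene span correction, and 0 to 0 when 1 library was left out. Calls over all tested genes, 1853 in the reported fit, were 0 without a filter, 1 without a trend, 118 with the minimum change, and 0 to 15 with 1 library left out. With the replicate number as a block, 7 HOX genes (HOXB5 among them, limma adjusted p = 0.0489) and 2442 genes in all were called, but same-numbered libraries deviated together with a correlation of only 0.031, so the numbers are not shown to pair them. The cause of these shifts was not tested. Robust variances, no variance trend, the replicate block and the minimum change leave each fold change as in the reported fit. The HOX median of 0.19 was fixed in advance there.

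Of 570 results of single HOX genes under the alternatives, 509 kept their direction and side of the threshold. A further 38 lost a call, 9 gained one and 14 changed sign, and no called gene changed sign. Only the 5 called genes could lose a call. Over the 16 alternatives HOXA5, HOXA10 and HOXB2 kept it in 9 each, HOXC9 in 8 and HOXA9 in 7. The log2 fold change of HOXB8 moved to 0.0022 under quantile normalization, 0.05 with the GC correction and 0.03 with the GC, exon length and gene span correction, and ran between -0.07 and 0.05 with 1 library left out. The log2 fold change of HOXB13 moved to 0.0011 with the GC correction, and that of HOXC8 to -0.01 with GC content, exon length and gene span corrected. With 1 library left out, the log2 fold change of HOXB3 ran between -0.10 and 0.04, HOXC8 between -0.08 and 0.10, HOXD4 between -0.03 and 0.33 and HOXD8 between -0.10 and 0.29. Among the neighbours, CBX1 moved to -0.01 under quantile normalization and -0.03 with GC content, exon length and gene span corrected. With 1 library left out CALCOCO2 ran between -0.03 and 0.03, MTX2 between -0.14 and 0.06 and LNPK between -0.02 and 0.02. Depth is unknown, so its limit cannot be given.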

Other observations

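Other homeobox genes, outside the HOX clusters, had 2 calls among 21 tested, both higher (9.52%, beside 6.3% of all tested genes), and a median log2 fold change of 0.03. EN2, a homeodomain gene of the midbrain and cerebellum, had 28.6 and 29.2 TPM in the libraries labelled RNase H1, against 16.5 and 16.3 TPM in those labelled Flag (log2 0.78 ± 0.07, SE, limma adjusted p = 0.00747). That change is larger than the point estimate of any tested HOX gene. MSX2, a homeodomain gene of skull and limb growth, had 57.2 and 57.9 TPM, against 42.2 and 43.7 TPM in the Flag group (log2 0.41 ± 0.06, SE, limma adjusted p = 0.0158). EMX1, a gene of the cerebral cortex, had 4.88 and 4.65 TPM, against 6.67 and 8.2 TPM in the Flag group (log2 -0.54 ± 0.14, SE, limma adjusted p = 0.054), and DLX1, a gene of forebrain interneurons, had 13.9 and 16.1 TPM, against 18.1 and 20.2 TPM (log2 -0.34 ± 0.11, SE, limma adjusted p = 0.0898). None of these 4 overlapped between groups, and EMX1 and DLX1 were not called. The EN2 and MSX2 calls ended when any 1 library was left out, with log2 changes of 0.77 to 0.80 for EN2 and 0.39 to 0.44 for MSX2.

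Among the markers of HEK293T cells, IRS4, an insulin receptor substrate that this line is known to express, had 107 and 99.9 TPM in the libraries labelled RNase H1, against 217 and 218 TPM in those labelled Flag (log2 -1.07 ± 0.05, SE, limma adjusted p = 0.00223). NEFM, a neurofilament protein, had 29.3 and 30.2 TPM, against 44.9 and 41.7 TPM in the Flag group (log2 -0.52 ± 0.07, SE, limma adjusted p = 0.0145). NEFL, its partner in the filament, had 28.1 and 27.6 TPM, against 37 and 37.7 TPM in the Flag group (log2 -0.41 ± 0.06, SE, limma adjusted p = 0.0196). KRT18, a keratin of simple epithelia, had 99.7 and 100.9 TPM, against 83.5 and 82.7 TPM in the Flag group (log2 0.27 ± 0.05, SE, limma adjusted p = 0.0259). With any 1 library left out the NEFM, NEFL and KRT18 calls ended, at log2 changes of -0.58 to -0.47, -0.42 to -0.40 and 0.26 to 0.28, while the IRS4 call held only without the second Flag library (-1.07, adjusted p = 0.0466) and ended without each of the others (-1.11 to -1.02). ALB, the albumin gene of liver, had 1.51 and 2.05 TPM, against 0.23 and 0.62 TPM (log2 0.97 ± 0.25, SE, limma adjusted p = 0.0572), and was not called. The part of these markers in the HOX values was not tested.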
